A study of Mus musculus with 4 samples.

Results

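Classical monocytes are short-lived blood and spleen cells that carry much Ly6c2, leave the bone marrow through the chemokine receptor Ccr2 and enter inflamed tissue and tumours, where they can become macrophages. Non-classical monocytes, which carry Ace and Cd300e and little Ly6c2, patrol vessels and largely derive from the classical ones. The cells described here are the Ly6c2 monocytes of the spleen, 657 cells in all, 304 from Ndufa4-deficient mice (KO) and 353 from wild-type mice (WT). They were chosen by measured values, among 14482 kept spleen barcodes and 23157 kept barcodes of the whole series. A barcode qualified with at least 1 unique molecular identifier (UMI, a counted RNA molecule) of Csf1r, at least 3 of Lyz2 and at least 2 of Ly6c2. It also had to have no UMI of Ace, Cd300e, Ncr1, Cd3d, Cd3e, Cd3g, Flt3, Cd79a or Vcam1.

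The series holds 4 droplet single-cell libraries, 1 each for KO spleen, WT spleen, KO tumour and WT tumour. All mice were males on a C57BL/6 background, aged 8 weeks, and all carried a subcutaneous B16-F10 melanoma, implanted 18 days earlier. Spleen cells were sorted for CD45 and the myeloid marker CD11b, and tumour cells for CD45 alone, and each library pooled cells of 3 mice (up to 4 by the protocol). The labels do not describe how Ndufa4 was deleted, so it is not known whether the gene was lost in all tissues. With 1 pooled library per group there is no replicate check, no test between genotypes is given, and every interval covers counting error only.

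The spleen libraries held 46499361 UMIs in KO and 57272311 in WT. The Ly6c2 monocytes had a median of 11377.5 UMIs in KO and 12712 in WT, and a median mitochondrial share of 3.80% in KO and 3.70% in WT. The 2 spleen libraries shared 19 barcode sequences, none of them among the cells described here, while 2 KO and 1 WT cells of the rule shared a barcode with any other library. They made up 4.37% of kept KO spleen cells (exact binomial interval 3.90 to 4.88%) and 4.69% of kept WT spleen cells (4.22 to 5.19%). The difference between these libraries was -0.32 percentage points, and their counting intervals overlapped, which says nothing of the spread between animals. Non-classical monocytes, taken as the cells of the same rule with at least 2 UMIs of Ace and Cd300e and no limit on Ly6c2, were 7.06% of KO and 17.0% of WT spleen cells. Both shares depend on what else passed the CD11b sort.

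The label was checked against its markers. Ly6c2 lies on chromosome 15 (75108158 to 75111970, minus strand, GRCm38, GENCODE M21), and its level, which the rule used, was 1828 CPM in KO and 1468 CPM in WT, where CPM is a gene's summed UMI count scaled to a common total of all UMIs of the cells. Vcan, a matrix proteoglycan that marks classical monocytes, was at 787 CPM in KO and 1181 CPM in WT, and 74.7% of KO and 86.1% of WT cells had a UMI of it. F13a1, the A chain of coagulation factor XIII, was at 1690 CPM in KO and 1718 CPM in WT. After each cell was thinned to 2000 UMIs, F13a1 was seen in 81.2% of the KO and 84.7% of the WT cells of the rule. In natural killer cells of the same libraries it was seen in 0.778% in KO and 1.43% in WT, so most cells of the rule carried it well above the level of free RNA. Ly6c2 itself was less particular, with a UMI in 45.4% of KO and 40.5% of WT natural killer cells after thinning.

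The rule also took in cells that the label does not describe. Most cells had almost no UMI of 6 neutrophil markers (S100a8, S100a9, Retnlg, Ly6g, Csf3r and Cxcr2), but 40 KO and 43 WT cells drew more than 1% of their UMIs from them. These neutrophil-marked cells were 13.2% of the KO cells (9.57 to 17.5%) and 12.2% of the WT cells (8.96 to 16.1%). Among them, 29 in KO and 28 in WT had fewer than 5 UMIs of Ccr2, F13a1 and Vcan together, with a median of 0. The other 11 in KO and 15 in WT had monocyte and neutrophil markers side by side. Scrublet, a doublet caller, marked 8 of the 40 in KO and 14 of the 43 in WT. The limit of 1% was set after the values had been seen. In the 29 and 28 cells with hardly any monocyte marker, Ngp and Camp, granule genes of immature neutrophils, were at 36301 and 25593 CPM in KO and at 9223 and 3255 CPM in WT. Retnlg, a gene of mature neutrophils, ran the other way, at 5412 CPM in KO and 16492 CPM in WT.

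**Figure D1:**
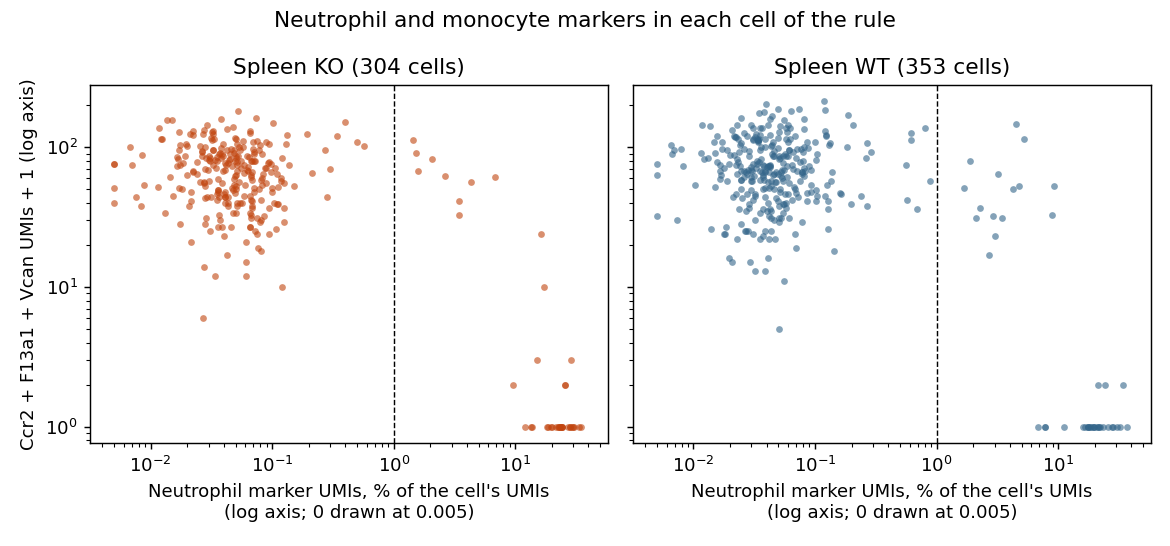
Each point is a cell of the rule, KO left and WT right; the x axis gives the share of its UMIs from 6 neutrophil markers (%) and the y axis its UMIs of Ccr2, F13a1 and Vcan plus 1, both on log axes, with the 1% limit dashed. Most cells lie at upper left, 40 KO and 43 WT cells lie right of the line, and most of those lie at the bottom with few or no monocyte marker UMIs.

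Cells close to the limits of the rule showed where this mixture lay. Among cells with a single Csf1r UMI, the least the rule allows, 24 of 40 in KO and 24 of 35 in WT were neutrophil-marked, against 16 of 264 in KO and 19 of 318 in WT at 2 or more. Just inside the Ly6c2 limit, at 2 to 3 UMIs, F13a1 was at 750 CPM in KO and 909 CPM in WT. Just outside, at 1 UMI, 30 KO and 38 WT cells had 413 CPM of F13a1 in KO and 369 CPM in WT, and S100a8 at 37968 CPM in KO and 45516 CPM in WT. Another 52 KO and 87 WT cells failed on a single UMI of Ace or Cd300e, and their Ccr2, at 2069 CPM in KO and 2141 CPM in WT, was close to that of the chosen cells. Results below are given for all cells of the rule and, where it matters, for the 264 KO and 310 WT cells that were not neutrophil-marked.

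Markers of cell types other than neutrophils were low. The summed level of 5 T cell markers was 1.81 CPM in KO and 0.433 CPM in WT, with Cd3d, Cd3e and Cd3g at 0 by the rule, and that of 4 natural killer markers was 23.8 CPM in KO and 35.2 CPM in WT. The 5 B cell markers summed to 205 CPM in KO and 153 CPM in WT with Cd79a at 0 by the rule. The 6 neutrophil markers summed to 21950 CPM in KO and 9641 CPM in WT, and to 646 CPM in KO and 710 CPM in WT without the neutrophil-marked cells. The part of these other transcripts in the results below was not tested beyond the values given with and without such cells. Free RNA differed between the libraries: after thinning, Ngp had a UMI in 10.4% of KO and 1.78% of WT natural killer cells, and Igha in 22.8% of KO and 11.2% of WT natural killer cells. Xist had no UMI in either library's cells of the rule.

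Ndufa4, on chromosome 6 (11900292 to 11907497, minus strand), is a small subunit tied to cytochrome c oxidase, the last enzyme of the respiratory chain. It had 0 UMIs in the 304 KO cells and 1638 UMIs, or 354 CPM (337 to 372), in the 353 WT cells, where 92.1% of cells had a UMI. Against a floor of 3 counts over all KO cells it was at least 456-fold lower in KO. The loss was not confined to these cells. After thinning, a UMI of Ndufa4 was seen in 0.104% of KO and 49.2% of WT natural killer cells of the spleen. In B cells of the spleen the shares were 0.392% in KO and 33.9% in WT. The libraries thus match their genotype labels in these cells.

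Over all genes, KO and WT monocytes were compared by the log2 ratio of their summed CPM, so that positive values are higher in KO. Among 7950 genes with a mean of 10 CPM or more, 383 (4.82%) passed 1.5-fold upward in KO and 201 (2.53%) downward, with a median over all genes of -0.02. Without the neutrophil-marked cells, 337 (4.25%) of 7937 genes were higher and 183 (2.31%) lower. Without the cycling cells described below as well, 173 (2.22%) of 7804 genes were higher and 188 (2.41%) lower. Non-classical monocytes had fewer on either side, with 93 (1.18%) higher and 101 (1.28%) lower of 7862 genes. They were also summed over more cells, though with fewer UMIs in each, at a median of 7650 in KO and 7446 in WT. Such counts rise when fewer UMIs are summed, as the thinned counts given below show. No comparison of the 2 kinds of monocytes at a matched UMI total is given. These are counts past a fold, not tests.

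The 10 highest ratios fell into 3 kinds. Ppfia4, a liprin scaffold gene, stood alone with 323 UMIs in KO (83.7 CPM) and 2 UMIs in WT (0.433 CPM), a log2 ratio of 7.60 (5.73 to 10.65), and 56.6% of KO cells had a UMI of it. Camp, Ngp and Ltf, which encode neutrophil granule proteins, had ratios of 4.43, 3.44 and 3.24. The rest were Plk1, Hmmr, Nusap1, Cdca3 and Cdca8, genes of mitosis, and Elane, the neutrophil elastase of granulocyte and monocyte progenitors. Their ratios lay between 2.75 for Cdca8 and 3.37 for Plk1.

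The granule genes came mainly from the neutrophil-marked cells. Camp was at 2196 CPM in KO and 102 CPM in WT over all cells of the rule, and at 21.9 CPM in KO and 1.41 CPM in WT without the neutrophil-marked cells. Ngp was at 3116 CPM in KO and 287 CPM in WT over all, and at 31.8 CPM in KO and 3.05 CPM in WT without them. After thinning, Ngp had a UMI in 6.46% of the remaining KO and 0.323% of the remaining WT monocytes, below the shares in natural killer cells of the same library, so what remains of it is read as background. AA467197, which encodes a paralogue of Ndufa4, behaved likewise: it was at 48.4 CPM in KO and 7.57 CPM in WT over all, and at 1.80 CPM in KO and 0.235 CPM in WT without the neutrophil-marked cells. Outside the neutrophil-marked cells its level was thus close to 0 in both genotypes.

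The granulocyte-like monocyte list, which joins granule and progenitor genes found in a neutrophil-like branch of classical monocytes, split with these cells. Over all cells of the rule 12 of its 15 measured genes passed 1.5-fold upward in KO and 2 downward, beside 4.82% and 2.53% of all genes, with a median of 1.45. Once the neutrophil-marked cells were left out, 5 of 12 passed upward and 2 downward, beside 4.25% and 2.31% of all genes, with a median of 0.01. Without the cycling cells too, 2 of 10 passed upward, Camp and Ngp, and 5 downward, Wfdc21, Saa3, Lcn2, Prtn3 and S100a8, with a median of -0.66, beside 2.22% and 2.41% of all genes. In that last set Lcn2, an iron-sequestering granule protein gene, was at 39.8 CPM in KO and 85.2 CPM in WT, and Prtn3, a granule protease gene, at 37.6 CPM in KO and 71.8 CPM in WT. Camp, Ngp and S100a8 need a limit. After thinning, without the neutrophil-marked cells, S100a8 had a UMI in 25.5% of KO and 29.7% of WT monocytes. The shares were 37.6% of KO and 26.01% of WT natural killer cells, and 34.5% of KO and 29.9% of WT B cells. Camp had a UMI in 5.32% of these KO monocytes, below the 8.71% of KO natural killer cells. These 3 genes were thus not told apart from free RNA in the monocytes.

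**Figure D2:**
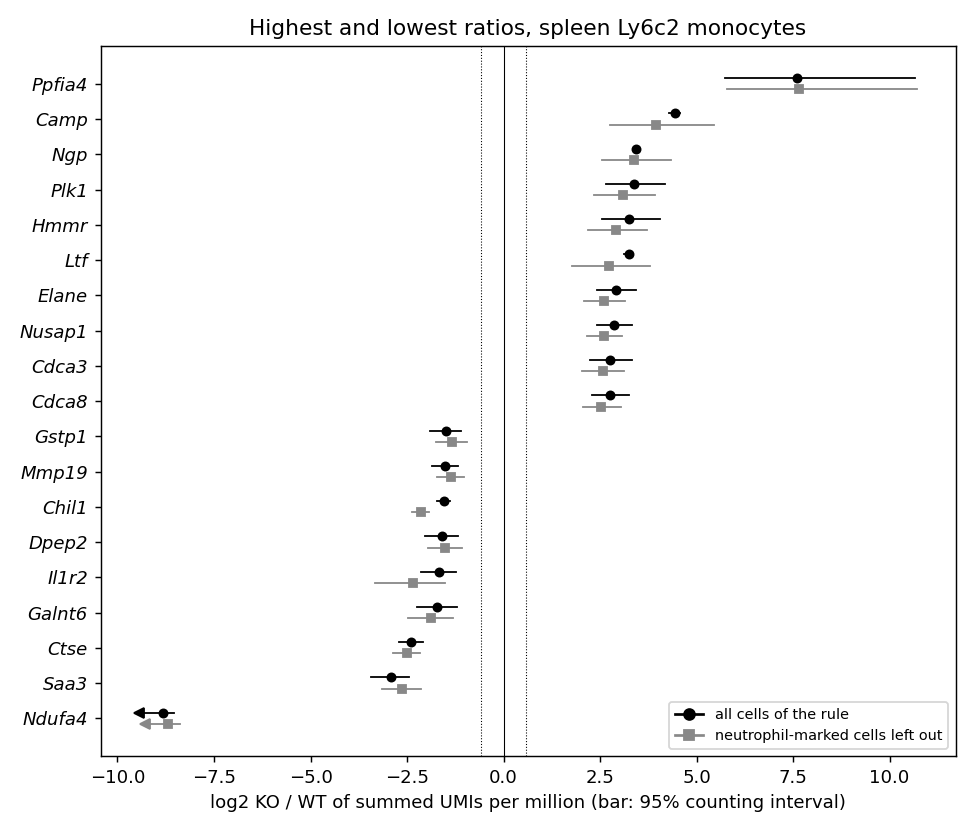
Log2 KO/WT ratio (x axis) of the 10 genes with the highest ratio and of the genes named in the text among the 10 with the lowest, in all cells of the rule (black circles) and without neutrophil-marked cells (grey squares), bars giving 95% counting intervals and dotted lines the 1.5-fold limits. Ppfia4 lies highest at 7.60, the Ndufa4 point at -8.83 is a bound marked by an arrow, and no gene shown changes side when the neutrophil-marked cells are left out.

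Among the 10 lowest ratios were, beside Ndufa4, those of Saa3, Ctse, Galnt6, Il1r2, Dpep2, Chil1, Mmp19 and Gstp1. Saa3, an acute-phase serum amyloid gene on chromosome 7, was at 10.1 CPM (7.18 to 13.8) in KO and 76.8 CPM (69.0 to 85.2) in WT, and only 3.62% of KO and 15.6% of WT cells had a UMI. Chil1, a chitinase-like secreted protein gene, was at 91.7 CPM in KO and 269 CPM in WT. The gap in Chil1 was wider without the neutrophil-marked cells, with 56.9 CPM in KO and 252 CPM in WT, and a log2 ratio of -2.15 (-2.38 to -1.92). A UMI of Chil1 was seen in 12.5% of KO and 39.2% of WT cells after thinning, against 1.09% of KO and 1.07% of WT natural killer cells, so it was expressed well above background in both genotypes. Mmp19, a matrix metalloproteinase gene, was at 24.4 CPM in KO and 69.2 CPM in WT.

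Il1r2, the decoy receptor for interleukin 1, was at 13.7 CPM in KO and 43.5 CPM in WT, with a log2 ratio of -1.66 that became -2.36 without the neutrophil-marked cells. Dpep2, a dipeptidase gene that takes part in leukotriene metabolism, was at 15.3 CPM in KO and 46.3 CPM in WT. Ctse, which encodes the protease cathepsin E, needs a limit: after thinning a UMI was seen in 5.28% of KO and 22.7% of WT monocytes, and in 3.58% of KO and 20.5% of WT natural killer cells and 6.67% of KO and 28.7% of WT B cells. Its share was thus close to that in cells of other lineages of the same library, and expression in these monocytes was not told apart from free RNA. Gstp1, a glutathione transferase gene, at 18.4 CPM in KO and 51.7 CPM in WT, has a near-identical copy in the genome, and how reads were divided between them is uncertain.

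Leaving out the neutrophil-marked cells brought in 2 more low genes. Wfdc21 was at 17.7 CPM in KO and 125 CPM in WT among the remaining monocytes, but at 434 CPM in KO and 291 CPM in WT over all cells of the rule, so its direction turned with the mixture. Lrg1, a secreted leucine-rich glycoprotein gene, was at 9.88 CPM in KO and 63.4 CPM in WT without the neutrophil-marked cells. With Saa3, Chil1 and Il1r2, these 5 genes were lower in KO among the remaining monocytes, a grouping made after their values had been seen.

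Chil1, Ctse and Ppfia4 lie close together on chromosome 1. Ctse starts at 131638306, Chil1 spans 134182176 to 134190181 and Ppfia4 spans 134296783 to 134332928 in GRCm38. In a window from 5 Mb before Ctse to 5 Mb after Ppfia4, chosen after these genes had been seen, 50 genes were measured. Of these, 5 passed 1.5-fold upward in KO and 4 downward, and since the window was drawn around genes that passed, nothing is read from these counts. The higher ones were Ppfia4, Atp2b4 (a plasma membrane calcium pump gene, log2 ratio 1.28) and 3 others, Mcm6, Nucks1 and Ptpn7, and the lower ones were Ctse, Chil1, Klhl12 (-1.15) and Cyb5r1 (-0.81). The median of the window was -0.05.

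Genes of cell division were higher together in KO. In a cell cycle list of 19 genes, 17 passed 1.5-fold upward in KO and none downward, beside 4.82% and 2.53% of all genes. The median log2 ratio was 1.92, against -0.02 over all genes. Mki67, the proliferation marker Ki-67 on chromosome 7, was at 320 CPM (303 to 339) in KO and 54.5 CPM (48.0 to 61.7) in WT. Ccnb1, the cyclin of mitotic entry, was at 27.2 CPM in KO and 4.11 CPM in WT, and Top2a, a topoisomerase of replicating cells, at 319 CPM in KO and 61.2 CPM in WT. Without the neutrophil-marked cells, 16 of 18 measured genes were still higher, beside 4.25% of all genes, with a median of 1.65. The list contains 11 genes that were also used to mark cycling cells, as follows.

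The difference rested on a small number of cells. Cells with at least 10 UMIs of Mki67, Top2a, Cdk1, Ccnb1, Ccnb2, Ccna2, Birc5, Rrm2, Ube2c, Cenpa and Tyms numbered 21 of 264 in KO (7.95%, 4.99 to 11.9%) and 5 of 310 in WT (1.61%, 0.526 to 3.72%), neutrophil-marked cells left out. The share was 6.34 percentage points higher in the KO library, with no replicate to set it against. The 21 KO cells held 97.1% of the KO cells' UMIs of these genes, and the 5 WT cells held 77.8% of those of the WT cells. The limit was set after the values had been seen, and 4 KO and 6 WT cells had between 5 and 19 such UMIs. Below the limit the direction was the other way. Cells with 1 to 9 such UMIs were 68 of 264 in KO (25.8%) and 130 of 310 in WT (41.9%), not matched for depth. After thinning to 2000 UMIs, Mki67 was seen in 9.13% of KO and 1.61% of WT monocytes, so the direction was the same at matched depth, against 1.97% of KO and 1.66% of WT natural killer cells. Scrublet marked none of the 21 KO and 5 WT cells as a doublet, although they were deep, with a median of 29986 UMIs in KO and 32542 in WT.

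The cycling cells of both genotypes had more granule protease transcripts than the remaining monocytes, with only 5 cells on the WT side. Elane was at 281 CPM in the 21 cycling KO cells and 134 CPM in the 5 cycling WT cells, against 1.47 CPM in the other KO and 3.91 CPM in the other WT monocytes. Prtn3, another granule protease of progenitors, was at 673 CPM in cycling KO and 664 CPM in cycling WT cells, against 37.6 CPM in the other KO and 71.8 CPM in the other WT monocytes. Ly6c2 was also higher in them, at 2953 CPM in cycling KO and 2490 CPM in cycling WT cells, while Ccr2 was lower, at 1373 CPM in cycling KO and 1065 CPM in cycling WT cells. F13a1, at 1766 CPM in cycling KO and 1327 CPM in cycling WT cells, kept a monocyte level. The transcript of the stem cell receptor Kit was at 0 in the cycling cells of both genotypes. Other genes differed between the cycling cells of the genotypes, such as Cx3cr1, at 47.9 CPM in cycling KO and 164 CPM in cycling WT cells, and Apoe, at 19.2 CPM in cycling KO and 207 CPM in cycling WT cells. These differences rested on few cells. Cx3cr1 had 30 UMIs in 38.1% of the 21 KO cells and 27 UMIs in 60% of the 5 WT cells. Apoe had 12 UMIs in 4.76% of the KO cells and 34 UMIs in 40% of the WT cells.

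Granule proteases were not higher in KO outside the cycling cells. Of the cycling cells, 14 of 21 in KO and 4 of 5 in WT had at least 5 UMIs of Elane, Mpo, Prtn3 and Ctsg together. Of the other monocytes, 0 of 243 in KO did (exact binomial interval up to 1.51%; a limit of 3 counts gives 1.23%), against 18 of 305 in WT (5.90%, exact binomial interval 3.53 to 9.17%). Elane was at 53.9 CPM in KO and 8.92 CPM in WT without the neutrophil-marked cells, and its log2 ratio was -1.41 when the cycling cells were left out too.

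**Figure D3:**
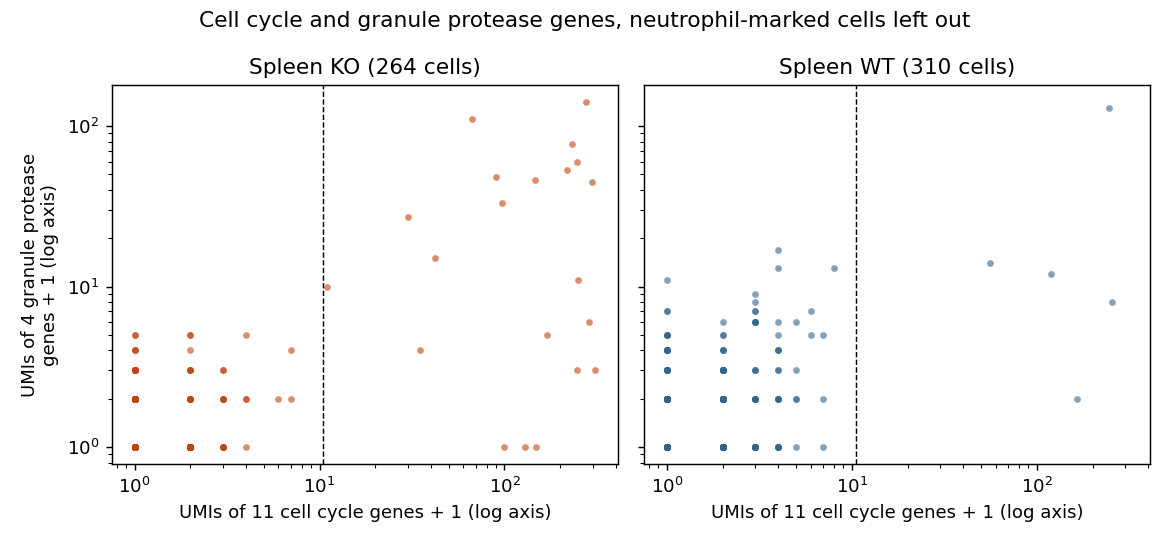
Each point is a monocyte that was not neutrophil-marked, KO left and WT right; the x axis gives its UMIs of 11 cell cycle genes plus 1 and the y axis its UMIs of Elane, Mpo, Prtn3 and Ctsg plus 1, both on log axes. Right of the dashed line, at 10 or more cell cycle UMIs, lie 21 KO and 5 WT cells, most of them high on the y axis as well, while left of it WT cells reach higher protease counts than KO cells.

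The cell cycle genes that moved together were also read at their promoters, because genes of late cell division share known elements, the CHR (cell cycle genes homology region, TTTGAA) and the CCAAT box (CCAAT). Both were searched on both strands in the 250 bases before the transcription start in RefSeq annotation of GRCm38.p6, which held 16 of the 19 list genes. The CHR letters were found in 6 of 16 list genes and in 18.3% of all 27025 genes of the table, and the CCAAT letters in 13 of 16 and in 37.5% of all. The motifs share no overlap with each other in the 3 promoters shown, which were picked because they hold both, and capitals mark each match, which reads ATTGG for a CCAAT box on the other strand:
Mki67 (chr7:135716380-135716629, minus strand): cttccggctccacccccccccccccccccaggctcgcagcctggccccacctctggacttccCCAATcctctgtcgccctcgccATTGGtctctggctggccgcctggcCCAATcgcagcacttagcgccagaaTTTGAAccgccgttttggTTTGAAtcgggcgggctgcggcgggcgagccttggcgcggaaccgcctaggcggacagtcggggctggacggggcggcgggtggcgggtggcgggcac
Cdk1 (chr10:69352913-69353162, minus strand): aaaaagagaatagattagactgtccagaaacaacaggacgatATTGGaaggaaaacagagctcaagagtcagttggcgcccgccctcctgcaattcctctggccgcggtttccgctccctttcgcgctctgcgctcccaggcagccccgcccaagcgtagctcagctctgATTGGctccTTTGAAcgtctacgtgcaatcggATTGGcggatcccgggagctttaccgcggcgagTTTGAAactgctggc
Ccnb2 (chr9:70421555-70421804, minus strand): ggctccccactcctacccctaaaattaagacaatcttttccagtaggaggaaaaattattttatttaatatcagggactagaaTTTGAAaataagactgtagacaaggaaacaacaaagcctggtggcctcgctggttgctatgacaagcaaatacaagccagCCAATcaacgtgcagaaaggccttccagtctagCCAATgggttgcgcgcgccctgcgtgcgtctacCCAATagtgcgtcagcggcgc
Mki67 and Cdk1 hold the CHR letters at 2 places each and Ccnb2 at 1. A match is a run of letters and says nothing of whether a factor was bound there in these cells.

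Interferon genes were of interest because the study's title concerns interferon signalling in macrophages. The type I interferon list had 62 measured genes, of which 2 passed 1.5-fold upward in KO and 1 downward, beside 4.82% and 2.53% of all genes, with a median of 0.04. Of 23 measured genes in a type II interferon list none passed 1.5-fold in either direction, with a median of 0.03. The 2 higher genes were Isg15, a ubiquitin-like modifier, at 53.9 CPM (46.8 to 61.7) in KO and 27.5 CPM (22.9 to 32.7) in WT, and Ifit3, an RNA-binding antiviral protein gene, at 15.8 CPM in KO and 9.52 CPM in WT. The lower one was Ifi207, at 220 CPM in KO and 333 CPM in WT. Gbp5, a guanylate-binding protein gene typical of interferon gamma, was at 17.1 CPM in KO and 22.9 CPM in WT.

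The interferon lists moved with the makeup of the cells. Without neutrophil-marked and cycling cells, the type I median was 0.27 and 9 of 65 measured genes were higher and none lower, against 2.22% and 2.41% of all genes. These were Isg15 (1.32), Ifit3 (1.08), Samd9l (0.81), Phf11d (0.76), Rtp4 (0.74), Bst2 (0.67), Ifit2 (0.65), Oasl1 (0.63) and Trim30d (0.61), values being log2 ratios. The type II median was then 0.20, with Ccl5 (0.64) and Fcgr1 (0.63) higher of 23 genes. Isg15 was low in the cycling cells, at 1.60 CPM in KO and with 0 UMIs in the 5 WT cells (upper limit 22.5 CPM). In the other monocytes Isg15 was at 71.5 CPM in KO and 28.6 CPM in WT. Ly6e did not share this, at 2183 CPM in cycling and 2012 CPM in other KO cells (1851 and 1695 CPM in WT). Ifitm3 was lower but still plentiful, at 1130 CPM in cycling and 2731 CPM in other KO cells (956 and 2406 CPM in WT). The neutrophil-marked and the cycling cells were set aside after their values had been seen.

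Non-classical monocytes of the same libraries had a type I median of 0.30, with 11 of 65 genes higher and none lower, and a type II median of 0.38, with 8 of 25 higher and 1 lower, beside 1.18% and 1.28% of all their genes. Tumour cells that passed the same rule, 276 in KO and 201 in WT, had a type I median of 0.62, with 36 of 70 genes higher and 1 lower. Their type II median was 1.31, with 32 of 37 higher and none lower, while 6.02% of all their 7392 genes were higher and 6.05% lower. Gbp5 was at 206 CPM in KO and 50.3 CPM in WT among them. These tumour cells were not the same kind of cell, since C1qa, a complement gene of macrophages, was at 580 CPM in KO and 726 CPM in WT there, and at 10.1 CPM in KO and 0.649 CPM in WT in the spleen cells. No test of the difference between these cell groups could be made.

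**Figure D4:**
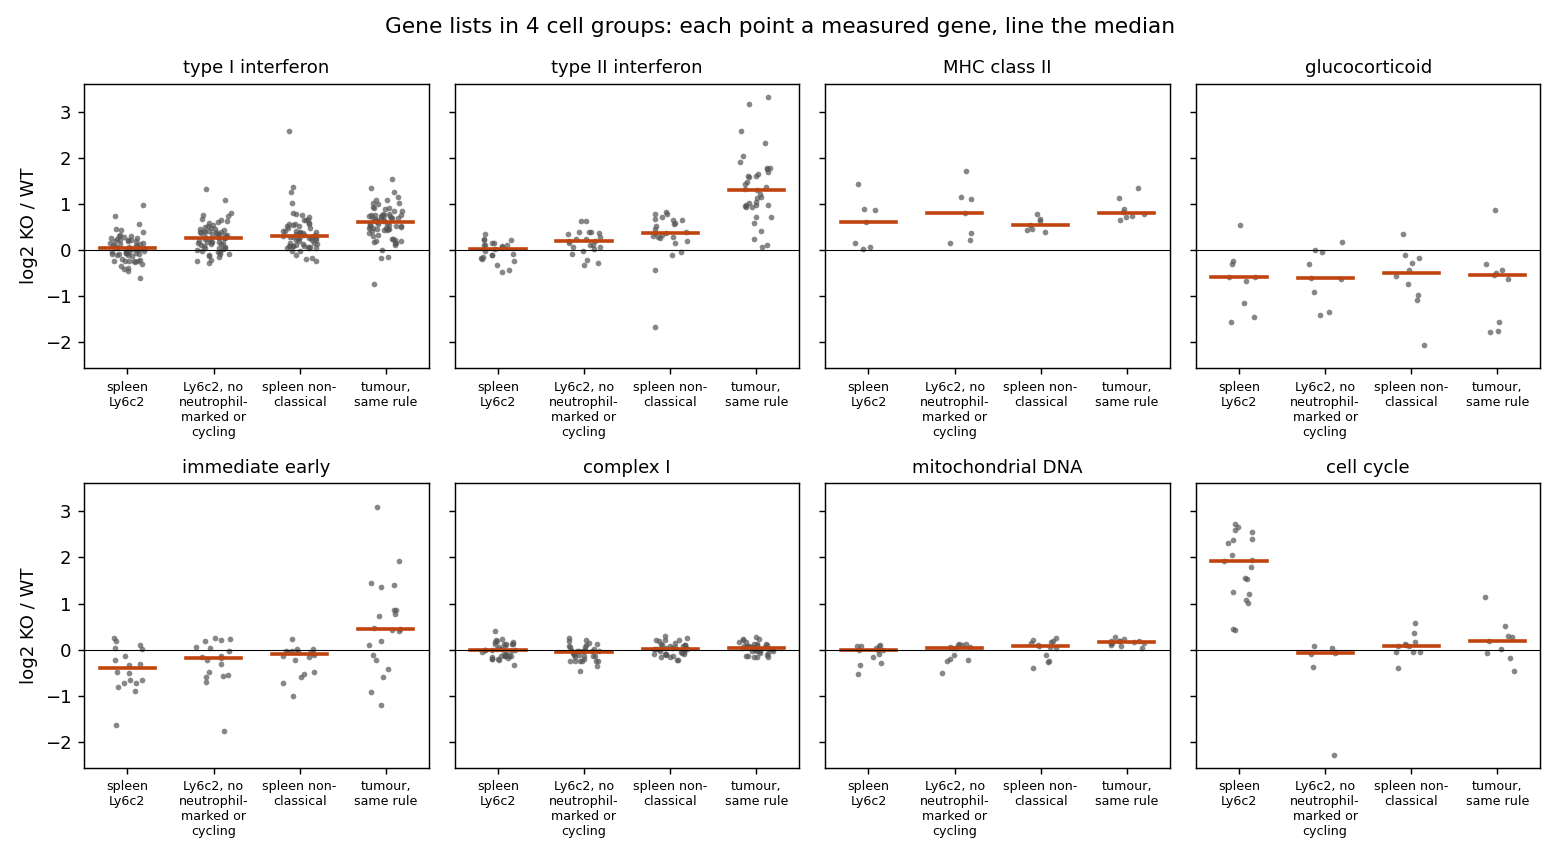
Log2 KO/WT ratio (y axis) of each measured gene in 8 lists, with the list median as a line, for spleen Ly6c2 monocytes, the same without neutrophil-marked and cycling cells, spleen non-classical monocytes and tumour cells of the same rule. The type II interferon median is 0.03, 0.20, 0.38 and 1.31 across the groups, the glucocorticoid medians lie between -0.59 and -0.49, and the cell cycle median of 1.92 is -0.07 once neutrophil-marked and cycling cells are left out, which removes cells chosen by these genes.

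Of 15 measured genes for receptors and signalling parts of the interferon pathway none passed 1.5-fold. Over all genes 4.82% were higher and 2.53% lower. Ifngr1, a chain of the interferon gamma receptor, was at 530 CPM in KO and 683 CPM in WT. Ifnar1, a chain of the type I receptor, was at 97.4 CPM in KO and 85.6 CPM in WT. Socs3, a feedback inhibitor of cytokine receptors, had the largest absolute ratio of the list, -0.58, and passed 1.5-fold, at -0.59, only without the neutrophil-marked cells.

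Genes of antigen presentation on MHC class II, which monocytes carry at low levels, were higher for 4 of 7 measured genes and lower for none, beside 4.82% and 2.53% of all genes, with a median of 0.60. H2-Eb1, a class II beta chain, was at 31.9 CPM in KO and 11.9 CPM in WT, and Cd74, the invariant chain, at 281 CPM in KO and 185 CPM in WT. Few cells held most of these transcripts. Cells with at least 20 UMIs of H2-Aa, H2-Ab1, H2-Eb1 and Cd74 together were 12 of 304 in KO and 14 of 353 in WT, and they held 73.3% of those UMIs in KO and 61.8% in WT. The remaining cells had 132 CPM in KO and 113 CPM in WT. After thinning, H2-Eb1 had a UMI in 2.64% of KO and 3.12% of WT cells, under the 3.84% of KO and 3.68% of WT natural killer cells. H2-Ab1 was close to them, with 6.27% of KO and 5.11% of WT monocytes against 4.82% of KO and 5.34% of WT natural killer cells. Cd74 lay above them, with 17.5% of KO and 15.9% of WT monocytes against 8.20% of KO and 11.3% of WT natural killer cells.

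Genes that glucocorticoids induce were lower in KO. Of 9 measured genes, 5 were at least 1.5-fold lower and none higher, beside 2.53% and 4.82% of all genes, with a median of -0.59. Fkbp5, a co-chaperone of the glucocorticoid receptor on chromosome 17 (28399094 to 28517527), was at 62.4 CPM (54.8 to 70.8) in KO and 170 CPM (158 to 182) in WT, and 43.8% of KO and 79.0% of WT cells had a UMI. Ddit4, an inhibitor of mTOR signalling, was at 8.29 CPM in KO and 24.4 CPM in WT. Zbtb16, a transcription factor gene, was at 7.77 CPM in KO and 17.3 CPM in WT, and Klf9, another, at 37.8 CPM in KO and 56.9 CPM in WT. Dusp1, a phosphatase of MAP kinases, was at 144 CPM in KO and 228 CPM in WT, and no longer passed 1.5-fold without the neutrophil-marked cells, where its ratio was -0.51 and 4 of 9 genes were lower.

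The low Fkbp5 was not particular to these cells. In non-classical monocytes Fkbp5 was at 52.2 CPM in KO and 218 CPM in WT, and in tumour cells of the same rule its log2 ratio was -1.75. After thinning, a UMI of Fkbp5 was seen in 11.6% of KO and 24.1% of WT Ly6c2 monocytes. The shares were 16.9% of KO and 25.1% of WT natural killer cells and 3.92% of KO and 12.6% of WT B cells of the spleen. The monocyte shares were thus not above those of natural killer cells, though above those of B cells. The part of free RNA in the Fkbp5 difference was not tested. The list medians were -0.49 in non-classical monocytes and -0.54 in the tumour cells. Mice were pooled by genotype, so differences between the pools cannot be told apart from genotype.

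Immediate early genes, which cells switch on within minutes of a stimulus or of handling, leaned the same way, with 7 of 18 lower, beside 2.53% of all genes, none higher and a median of -0.40. Nr4a1, a nuclear receptor that non-classical monocytes need, was at 101 CPM in KO and 176 CPM in WT. Hspa1a, a heat shock protein gene, was at 6.22 CPM in KO and 19.3 CPM in WT. Without the neutrophil-marked cells, 4 of 18 were lower, namely Hspa1a, Hspa1b, Ier3 and Nr4a1. Without the cycling cells too, only Hspa1a and Ier3 were lower and the median was -0.17.

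Most of the respiratory chain was level between genotypes. None of 36 complex I genes, 4 complex II genes, 9 complex III genes and 16 complex V genes passed 1.5-fold, with medians between -0.03 and 0.03. Over all genes 4.82% were higher and 2.53% lower. Of 13 measured complex IV genes, only Ndufa4 was lower and only AA467197, described above, higher, and the median was -0.05. Cox5a, a nuclear subunit, was at 264 CPM in KO and 228 CPM in WT, and Cox7c at 517 CPM in KO and 589 CPM in WT. The 13 genes of mitochondrial DNA summed to 38189 CPM in KO and 37513 CPM in WT, and none passed 1.5-fold, the lowest being mt-Nd4l at -0.53. None of 15 complex IV assembly genes and none of 19 glycolysis genes passed either. Without the neutrophil-marked and cycling cells, Eno1, the enolase of glycolysis, at 203 CPM in KO and 309 CPM in WT, and Slc2a1, the glucose transporter, at 18.4 CPM in KO and 27.8 CPM in WT, passed 1.5-fold downward.

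Most genes that define classical monocytes stayed within 1.5-fold. Of 21 list genes none passed 1.5-fold upward in KO and 2 passed downward, beside 4.82% and 2.53% of all genes, and the median was -0.09. Ccr2 was at 2438 CPM (2389 to 2488) in KO and 2307 CPM (2263 to 2351) in WT, and Fn1, fibronectin, at 2537 CPM in KO and 2668 CPM in WT. The lower ones were Cd14, a co-receptor for endotoxin, at 24.4 CPM in KO and 50.4 CPM in WT, and Vcan, whose ratio of -0.59 became -0.48 without the neutrophil-marked cells. Among 17 measured receptors for microbial patterns, Cd14 and Clec4e, a lectin receptor at 68.9 CPM in KO and 124 CPM in WT, were lower and none was higher, beside 2.53% and 4.82% of all genes, with a median of -0.37.

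Smaller groups held a few movers each, beside 4.82% of all genes higher and 2.53% lower. Of 10 genes of the integrated stress response, Psat1 (0.78) and Mthfd2 (0.73), enzymes of serine and one-carbon metabolism, and Ddit3 (0.60), a stress transcription factor gene, were higher, and Sesn2 (-0.90) was lower, values being log2 ratios. The median was 0.06, and without neutrophil-marked and cycling cells Ddit3 and Sesn2 alone still passed. Of 13 genes tied to suppressive myeloid cells, S100a8 and S100a9 were higher, which the neutrophil-marked cells carried, and Il4ra, the interleukin 4 receptor chain, at 58.3 CPM in KO and 95.2 CPM in WT, and Arg2 were lower. Without the neutrophil-marked cells, 1 of 11 measured genes of that list was lower. Without the cycling cells too, the only lower one of 11 was S100a8 (-0.92), so neither Il4ra nor Arg2 passed. The level of S100a8 was not told apart from free RNA in the monocytes, as given above. S1pr4, a receptor for sphingosine phosphate, was at 22.5 CPM in KO and 8.00 CPM in WT and was the only one of 12 adhesion and egress genes past 1.5-fold. Without neutrophil-marked and cycling cells, none of 11 measured genes of that list passed, so the S1pr4 difference did not hold there. Apoe, a lipid carrier of macrophages, was at 529 CPM in KO and 320 CPM in WT.

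Several genes followed Ly6c2 in both genotypes, and others in only one of them. The cells that were not neutrophil-marked were ranked by Ly6c2 within each library and cut into 3 groups of nearly equal size (88 cells each in KO, 103, 103 and 104 in WT), so Ly6c2 itself is a description. F13a1 was at 2133 CPM in the highest and 1367 CPM in the lowest group of KO cells, and at 2185 CPM in the highest and 1200 CPM in the lowest group of WT cells. Cx3cr1, a chemokine receptor of non-classical monocytes, ran the other way, at 164 CPM in the highest and 342 CPM in the lowest group of KO cells and at 138 CPM in the highest and 316 CPM in the lowest group of WT cells. Itgal, an integrin chain, and Treml4, both markers of non-classical cells, were also highest in the lowest group of each library. Spn, another marker of non-classical cells, did so in WT only: from low to high Ly6c2 it was at 53.4, 68.0 and 98.6 CPM in KO, and at 95.5, 62.6 and 61.5 CPM in WT. The groups include the cycling cells, which had more Spn. It was at 176 CPM in cycling and 53.5 CPM in other KO cells, and at 158 CPM in cycling and 68.6 CPM in other WT cells. The course of Spn without the cycling cells was not tested. Fkbp5 did not follow Ly6c2 and was lower in KO in each group, at 57.7, 66.1 and 64.8 CPM in KO, low to high, and at 167, 155 and 173 CPM in WT.

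Ccr2 and Chil1 took different courses in the 2 libraries. Ccr2 was at 3041 CPM in the lowest and 2372 CPM in the highest group of KO cells, and at 2247 CPM in the lowest and 2416 CPM in the highest group of WT cells. These groups include the cycling cells. Ccr2 was at 1373 CPM in cycling and 3034 CPM in other KO cells, and at 1065 CPM in cycling and 2481 CPM in other WT cells. Its course without the cycling cells was not tested. Chil1 was at 97.2, 75.7 and 14.7 CPM in KO from low to high Ly6c2, and at 269, 243 and 247 CPM in WT. Mki67 was at 5.34, 205 and 577 CPM in KO from low to high Ly6c2, and at 34.5, 4.42 and 124 CPM in WT. It was thus highest in the group with most Ly6c2 in each library, but not confined to it.

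**Figure D5:**
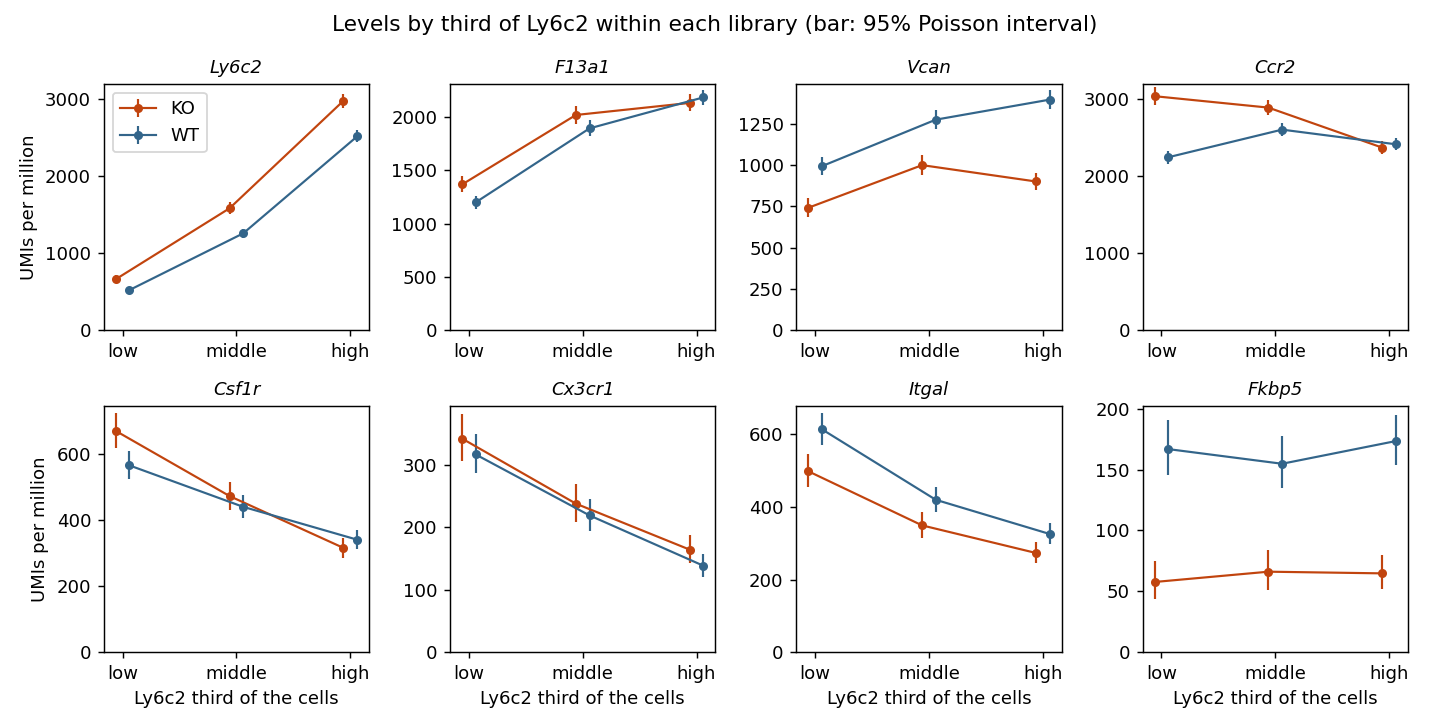
Levels in CPM (y axes from 0) of 8 genes in the 3 groups of cells with low, middle and high Ly6c2 within each library (x axis), KO and WT, bars giving 95% Poisson intervals. F13a1 rises and Csf1r, Cx3cr1 and Itgal fall with Ly6c2 in both genotypes, while Fkbp5 lies between 57.7 and 66.1 CPM in the KO groups and between 155 and 173 CPM in the WT groups.

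Against non-classical monocytes of the same library, genes were ranked by the smaller absolute ratio of the 2 libraries. Only genes with the same sign in both were kept, so agreement between genotypes was set by the ranking. The rule itself used Ly6c2, Ace and Cd300e. F13a1 was higher by 3.08 on the log2 scale in KO and 2.74 in WT, and Tfec, a transcription factor gene, by 3.13 in KO and 2.55 in WT. Among the 10 highest were also Mmp8, Prtn3 and the division genes Kif11, Pclaf, Hist1h3c, Hist1h1b and Hist1h2ap. The part of the few cycling cells in these division genes was not tested. The lowest were Fabp4 (-9.14 in KO and -8.10 in WT), a fatty acid carrier, and Slc12a2 (-6.56 in KO and -6.83 in WT), an ion transporter, followed by Adrb1, Cd36, Tgfbr3, Eno3, Lilra5, Dnah12, Tgm2 and Tmem26. Fabp4 was at 0.259 CPM in KO and 0.865 CPM in WT in the Ly6c2 monocytes, and at 146 CPM in KO and 238 CPM in WT in the non-classical cells. These are descriptions of cells chosen on related genes, with no test.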

How the data were processed

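The deposited files hold raw UMI counts per gene and barcode, made with Cell Ranger 6.0.0 per the file headers; the submitters' processing notes name Cell Ranger 3.1, Seurat 3.1 and 3.1.4 and the build mm10 or GRCm38. Barcodes with at least 500 UMIs, 200 genes and at most 10% mitochondrial UMIs were kept, and the cells were chosen from these counts by the rule given at the start of the results. The cells and all gene lists were chosen with earlier results of these data known. Counts were summed per library and cell class and divided by the class total (CPM). KO was set against WT as a log2 ratio with an exact conditional binomial interval, using numpy 2.4.6, scipy 1.17.1 and pandas 2.3.3. A gene counted as measured from a mean of 10 CPM and as higher or lower from 1.5-fold. Where 1 side had no UMI, a floor of 3 counts over the class gave a bound. Intervals are 95% and cover counting error only, since reads of 1 library per group give no spread between animals. In bulk sums of this kind, fewer expressing cells and less RNA per cell cannot be told apart unless shares of cells are given.

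The genes named are the 10 highest and the 10 lowest ratios with a mean of at least 20 CPM and an interval wholly beyond 1.5-fold, the 4 largest movers of each list with further members by role, the genes of the rule and the classical list, and the 10 highest and lowest against non-classical monocytes. Genes named outside this rule are said to be so. Of the 10 lowest ratios, 1 is not reported here. Doublets called by Scrublet (in scanpy 1.11.5) were kept: it called 2.80% of KO and 5.44% of WT spleen cells, and 10 KO and 16 WT cells of the rule. Natural killer cells (at least 2 Ncr1 UMIs, no Csf1r or Cd3 UMI) and B cells (at least 3 Cd79a UMIs) gave the background of free RNA. Alternatives were other mitochondrial limits, doublets or shared barcodes left out, other Ly6c2 limits, thinning to 1000 UMIs per cell, equal weight for each cell, another scaling and other filters on low counts. Leaving out neutrophil-marked cells, cycling cells or both was added after seeing the data. The ratio step was tested on simulated data. Of 32285 gene IDs, 32158 had a position in GENCODE M21.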

Additional observations from a re-analysis of the deposited data

Results flagged for a closer look

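In 12 genes, all members of the gene lists, the log2 KO/WT ratios of the spleen Ly6c2 monocytes and of tumour cells of the same rule lay past 1.5-fold in opposite directions. Over all genes, 4.82% were higher and 2.53% lower in spleen, and 6.02% were higher and 6.05% lower in tumour. No count of opposite directions over all genes is given. With 1 library per group the difference between organs was not tested. Of neutrophil granule and marker genes, S100a8 had 1.28 in spleen and -3.79 in tumour, S100a9 had 1.32 in spleen and -3.39 in tumour, and Lcn2, an iron-sequestering granule protein gene, had 2.07 in spleen and -3.86 in tumour. Pglyrp1, a peptidoglycan recognition protein gene, had 1.15 in spleen and -1.33 in tumour. Without the neutrophil-marked cells the spleen ratios were -0.36 for S100a8, 0.25 for S100a9, -0.31 for Lcn2 and -0.39 for Pglyrp1.

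The tetraspanin genes went the same way, with Cd9 at 0.82 in spleen and -1.62 in tumour, and Cd63 at 1.86 in spleen and -1.69 in tumour. Without the neutrophil-marked cells the spleen ratio of Cd9 was -0.53, so the opposite direction was gone, and that of Cd63 was 0.64. AA467197 had 2.68 in spleen and -0.81 in tumour. Ero1l, an oxidase of the endoplasmic reticulum, had 0.72 in spleen and -1.02 in tumour. Ddit3 had 0.60 in spleen and -0.59 in tumour, and Idi1, an enzyme of cholesterol synthesis, had 0.79 in spleen and -0.65 in tumour. The spleen ratios of Ero1l, at 0.30, and Idi1, at 0.49, no longer passed 1.5-fold without the neutrophil-marked cells. The immediate early genes ran the other way, with Nr4a1 at -0.80 in spleen and 0.73 in tumour, and Dusp1 at -0.66 in spleen and 0.87 in tumour. Dusp1 had -0.51 in spleen without the neutrophil-marked cells and no longer passed 1.5-fold.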

How the results depend on the processing

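The difference in the share of cells lay between -0.65 and -0.14 percentage points under the alternatives run for it. The count of higher genes, 383, was 1194 with each cell thinned to 1000 UMIs, 252 with equal weight for each cell, 75 at a mean of at least 50 CPM, 2665 without a filter on low counts, 179 without cycling cells and 173 without neutrophil-marked and cycling cells. The count of lower genes, 201, was 1272 thinned, 52 at 50 CPM and 1934 without a filter. The Ndufa4 bound of -8.83 was -5.13 thinned, -8.46 without cycling cells and -8.35 without both sets, because a smaller KO total raises the level that the floor of 3 counts stands for. The type II interferon median of 0.03 was 0.22 thinned, 0.11 with equal weight, 0.11 without neutrophil-marked cells, 0.077 without cycling cells and 0.20 without both. The type I interferon median of 0.04 was 0.055 without doublet calls, 0.068 with a Ly6c2 limit of 1 UMI, 0.13 thinned, 0.13 with equal weight, 0.083 without neutrophil-marked cells, 0.21 without cycling cells and 0.27 without both.

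Signs turned as follows, given as the log2 ratio first without cycling cells and then without both sets: the cell cycle median (-0.082, -0.067), Hmmr (-1.04, -0.99), Elane (-1.62, -1.41), Cdca8 (-0.67, -0.63), Ccna2 (-0.45, -0.41) and Mki67 (-0.12, -0.25). Without neutrophil-marked cells and then without both sets, they were Pglyrp1 (-0.39, -0.32), Cd9 (-0.53, -0.61), S100a8 (-0.36, -0.92), Lcn2 (-0.31, -1.10) and Ly6g (-0.65, -0.41). The granulocyte-like monocyte list had a median of -0.66 without both sets. Thinning turned Ero1l (-0.025) and Cd63 (-1.11). The cause of these turns under thinning was not tested.

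No paired analysis was possible because each genotype had 1 library per organ. With 1 library per group, differences between animals or pools cannot be told apart from genotype, and genes near 10 CPM rest on few UMIs.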
